A study of Mus musculus with 9 samples.

Results

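The 9 genes described here encode myelin proteins or an enzyme of myelin lipid synthesis: *Mbp*, *Mog*, *Mag*, *Mobp*, *Cnp*, *Cldn11*, *Mal*, *Ugt8a* and *Opalin*. They were taken by symbol from a table of read counts with 24421 gene rows, and each symbol occurs in 1 row. The table covers 9 libraries from brains of C57BL/6 mice bearing SB28, a mouse glioma line that carries GFP and luciferase. In 3 control libraries the mice had received vehicle, and in 3 BAL libraries they had received BAL101553, an oral prodrug of a microtubule-targeting compound that activates the spindle assembly checkpoint. Per the study's methods, GFP+ cells lacking CD45 and CD11b were sorted from such tumors, whereas the labels call the material whole tissue. By the same methods treated tumors were harvested later than controls, so that drug and time of growth cannot be told apart. Those methods describe fewer sequenced samples per group than the libraries here and no astrocyte group, so they may not cover these libraries. The other 3 libraries, termed Astro, are labelled astrocytes with the treatment BAL101553, and no untreated counterpart of them was analysed here, so that Astro and control differ in both cell label and treatment. Nothing in the labels says whether the libraries of a group came from separate animals, so p-values measure the spread between these libraries, which may be technical. In bulk RNA, fewer cells of a type and less RNA per cell cannot be told apart.

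Oligodendrocytes wrap axons of the central nervous system in myelin, a spiral of compacted plasma membrane that speeds conduction. Myelin basic protein, from *Mbp*, and the protein of *Mobp* hold the cytoplasmic faces together, the proteins of *Mog*, *Mag* and *Cldn11* sit at the outer surface, at the contact with the axon and in the tight junctions, and those of *Cnp*, *Mal* and *Opalin* belong to the cytoplasmic channels, to membrane traffic and to the surface of the mature cell. *Ugt8a* encodes the enzyme that makes galactosylceramide, a defining myelin lipid. The transcription factors SOX10 and MYRF are known to drive this program, which in the adult brain is a hallmark of mature oligodendrocytes and not of astrocytes.

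Promoters were read to see what the 9 genes share in sequence. RefSeq on GRCm38.p6 gave a promoter (250 bases before to 50 after the start) for 8 of the 9 genes, all but *Mbp*. Both strands were searched for ACAAAG, a core motif of SOX factors, and for CTGGNAC, a motif of MYRF; no match of one overlapped a match of the other. The promoters below are those with 3 or more matches in all and, for comparison, one with none, 5′ to 3′ on the strand of the gene, with matches of either motif in capitals (the SOX motif reads CTTTGT, and the MYRF motif GTNCCAG, when it lies on the opposite strand).
*Mobp*, chr9:120149492-120149791, plus strand: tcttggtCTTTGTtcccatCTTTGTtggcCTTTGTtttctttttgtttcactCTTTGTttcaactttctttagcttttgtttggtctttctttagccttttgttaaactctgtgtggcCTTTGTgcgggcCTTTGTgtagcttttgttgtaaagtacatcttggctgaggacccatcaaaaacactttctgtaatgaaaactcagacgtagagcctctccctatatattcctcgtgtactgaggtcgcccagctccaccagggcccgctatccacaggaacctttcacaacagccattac
*Mag*, chr7:30914814-30915113, minus strand: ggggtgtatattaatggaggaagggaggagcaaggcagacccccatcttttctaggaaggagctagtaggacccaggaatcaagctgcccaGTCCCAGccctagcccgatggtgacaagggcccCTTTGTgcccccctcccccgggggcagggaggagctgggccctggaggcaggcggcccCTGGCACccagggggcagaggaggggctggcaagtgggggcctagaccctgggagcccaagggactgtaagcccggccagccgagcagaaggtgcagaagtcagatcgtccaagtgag
*Cnp*, chr11:100574689-100574988, plus strand: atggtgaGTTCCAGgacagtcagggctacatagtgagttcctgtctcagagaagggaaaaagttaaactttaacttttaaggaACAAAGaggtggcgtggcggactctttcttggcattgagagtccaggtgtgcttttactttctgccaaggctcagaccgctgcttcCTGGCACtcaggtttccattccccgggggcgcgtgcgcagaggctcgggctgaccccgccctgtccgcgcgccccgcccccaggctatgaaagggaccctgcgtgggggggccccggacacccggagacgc
*Opalin*, chr19:41077064-41077363, minus strand: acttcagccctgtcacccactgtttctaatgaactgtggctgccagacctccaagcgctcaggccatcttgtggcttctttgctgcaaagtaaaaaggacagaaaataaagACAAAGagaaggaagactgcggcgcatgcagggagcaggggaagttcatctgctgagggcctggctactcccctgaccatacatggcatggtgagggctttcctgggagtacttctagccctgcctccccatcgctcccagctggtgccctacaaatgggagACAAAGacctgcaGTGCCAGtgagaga
*Cldn11*, chr3:31149670-31149969, plus strand: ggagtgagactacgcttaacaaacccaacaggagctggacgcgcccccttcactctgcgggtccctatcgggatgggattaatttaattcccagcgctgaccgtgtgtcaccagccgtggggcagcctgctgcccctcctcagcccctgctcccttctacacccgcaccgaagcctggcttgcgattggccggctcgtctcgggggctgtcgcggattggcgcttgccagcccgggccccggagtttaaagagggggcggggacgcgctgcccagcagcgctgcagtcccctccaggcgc

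The *Mobp* promoter held 6 SOX motifs, more than any other of the 32851 promoters searched. *Opalin* held 2, *Mag* and *Cnp* held 1 each, and *Mog*, *Cldn11*, *Mal* and *Ugt8a* held 0, so that 4 of 8 members carried the motif against 18.7% of all promoters. The MYRF motif was found in 4 of 8 members (2 matches in *Mag* and in *Cnp*, 1 in *Mog* and in *Opalin*) against 19.3% of all promoters. *Ugt8a*, *Cldn11* and *Cnp* had 40, 24 and 17 CpG dinucleotides in the window, whereas the other 5 members had 3 to 8 and the median promoter 7. These are matches of letters in a short window, and binding was not measured.

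All 9 genes were among the abundant transcripts of the Astro libraries and had few reads in the tumor libraries. Together they took 1.57% to 1.89% of all counted reads in the Astro libraries and 0.00160% to 0.00202% in the 6 control and BAL libraries. The 9 libraries held 22919523 to 34013875 counted reads each. As CPM (reads of a gene relative to the library's total, scaled by TMM over the 9 libraries), their sum was 15812 ± 1714 in Astro (SD, n = 3 here and below), 21.1 ± 1.38 in control and 17.8 ± 1.81 in BAL.

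*Mbp*, on chromosome 18, was the member with the most reads in the Astro libraries. In Astro 1, 2 and 3 it had 3746, 3664 and 2835 CPM, in control 1, 2 and 3 it had 1.43, 1.19 and 1.54 CPM, and in BAL 1, 2 and 3 it had 0.979, 1.10 and 1.10 CPM. Every Astro library stood far above every tumor library, as for all 9 genes. Of all genes tested, 50.4% were higher in Astro than in control without overlap, and 48.7% higher than in BAL. In read numbers, *Mbp* had 28 to 38 reads in a tumor library and 73568 to 118789 in an Astro library. On the log2 scale Astro exceeded control by 11.22 (SE 0.21, adjusted p = 2.11e-09, edgeR's quasi-likelihood test; here and below, p was adjusted by Benjamini and Hochberg's method across every gene tested) and BAL by 11.61 (SE 0.22).

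The other genes of compact myelin and of its lipids showed the same scale of difference. *Mobp* (GRCm38 chr9:120149707-120181484, plus strand) had 1051, 1084 and 924 CPM in Astro 1 to 3 and between 0.236 and 0.417 CPM in the tumor libraries, where 7 to 10 reads were counted. *Mal* (chr2:127633226-127656695, minus strand), whose proteolipid acts in membrane traffic, had 2865, 3203 and 2670 CPM in Astro and 0.755 to 1.50 CPM in the tumor libraries. Astro ranges and tumor ranges lay far apart for both genes. *Ugt8a* (chr3:125865271-125938619, minus strand) had 660, 695 and 508 CPM in Astro and 0.0744 to 0.436 CPM, from 2 to 15 reads, in the tumor libraries.

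Among the surface and adhesion proteins, *Mag* (chr7:30899176-30914873, minus strand), the glycoprotein that faces the axon, had 2453, 2682 and 2159 CPM in Astro and 0.548 to 1.42 CPM in the tumor libraries. *Mog* (chr17:37010743-37023398, minus strand), found on the outermost lamella, had 696, 740 and 624 CPM in Astro and 0.156 to 0.333 CPM, from 4 to 9 reads, in the tumor libraries. *Cldn11* (chr3:31149920-31164324, plus strand), the claudin of myelin tight junctions, had 1357, 1477 and 1220 CPM in Astro. *Opalin* (chr19:41061710-41077113, minus strand), a membrane protein of the mature cell, was the lowest member, with 266, 265 and 221 CPM in Astro. It was also at the limit of detection in the tumor libraries, with 0, 5 and 2 reads in control 1 to 3 and 1, 4 and 1 reads in BAL 1 to 3, at or near the floor of 3 reads used here as the limit of detection.

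**Figure D1:**
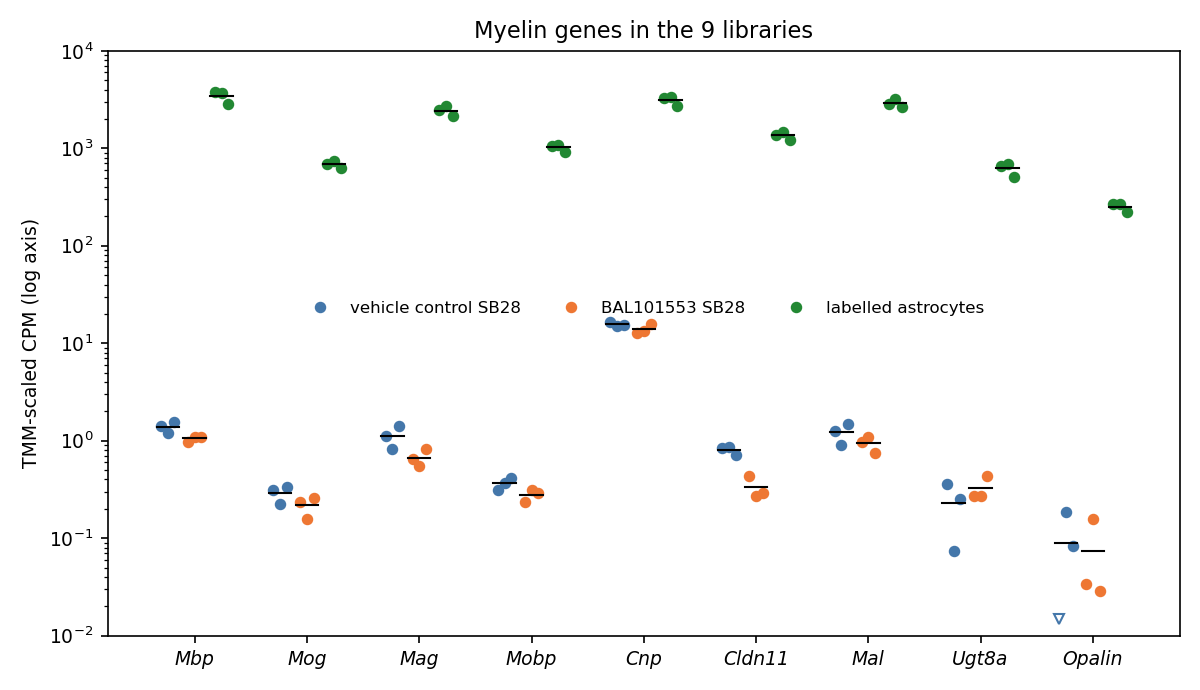
Level of each of the 9 genes in each library, in TMM-scaled CPM on a log axis, colored by group; the open triangle marks *Opalin* in control 1, where 0 reads were counted. Astro libraries sit between 221 and 3746 CPM, and tumor libraries at or below 1.54 CPM for every gene but *Cnp*, which lies between 12.6 and 16.5 CPM.

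All 9 genes passed the test as higher in Astro than in control, where 88.3% of 15207 genes tested passed in either direction and 48.8% were higher. All 9 were also higher in Astro than in BAL, where 85.1% of 15314 passed and 46.3% were higher. A pass alone therefore says little here, and the size of the difference says more: the median log2 fold change of the 9 genes was 11.19 against control and 11.61 against BAL, beside 0.25 and 0.18 over all genes tested. The comparisons share the Astro libraries. Leaving *Cnp* aside, log2 fold changes ran from 10.66 (*Cldn11*) to 11.40 (*Ugt8a*) against control and from 10.81 (*Ugt8a*) to 11.92 (*Cldn11*) against BAL, with SE between 0.16 and 0.28. The values of *Ugt8a* and *Opalin* rest on 0 to 15 reads per tumor library: without BAL 2 that of *Opalin* against BAL was 12.74, without control 2 it was 12.32 against control, and *Ugt8a* against control ran from 10.94 (without control 2) to 11.86 (without control 1). Scaling by total library size instead of TMM moved the median of all genes up by 0.30 against control and by 0.20 against BAL, small beside these values.

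**Figure D2:**
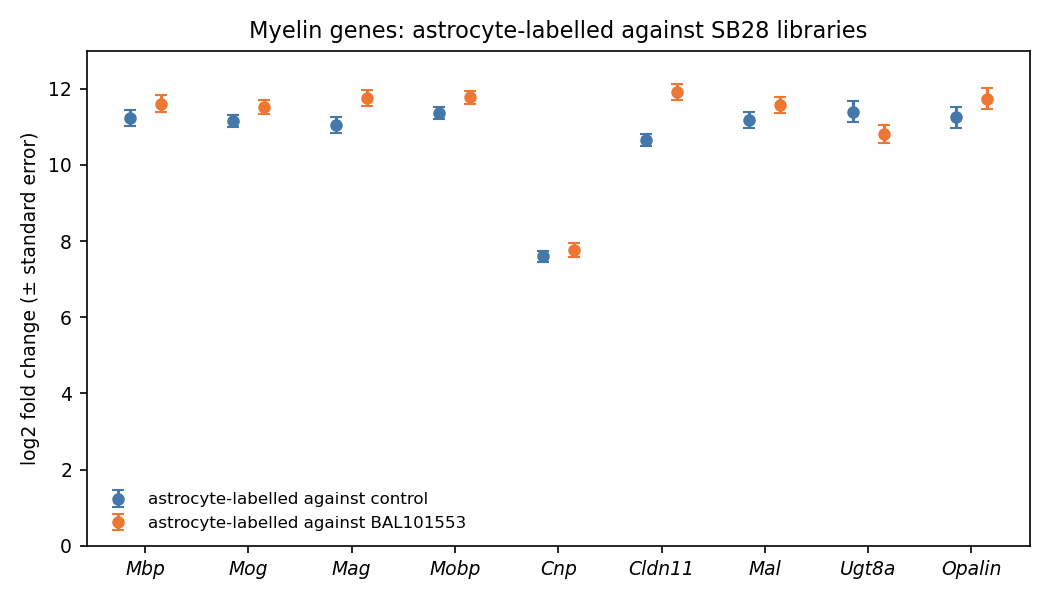
Log2 fold change of each gene (points, bars show ± 1 SE, n = 3 libraries per group) in Astro against control (blue) and in Astro against BAL (orange), from edgeR. Values lie between 10.66 and 11.92 for 8 genes and at 7.60 and 7.77 for *Cnp*.

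*Cnp* stood apart from the other 8 genes. *Cnp* (chr11:100574904-100591729, plus strand), a cyclic nucleotide phosphodiesterase of non-compact myelin, had 3243, 3393 and 2735 CPM in Astro 1 to 3, close to *Mbp*. In the tumor libraries it had 16.5, 14.9 and 15.4 CPM in control 1 to 3 and 12.6, 13.3 and 15.9 CPM in BAL 1 to 3, from 340 to 547 reads. No other member had more than 38 reads in a tumor library, and its control and BAL ranges overlapped. Log2 fold changes were 7.60 in Astro over control (SE 0.15, adjusted p = 2.26e-09, edgeR) and 7.77 over BAL (SE 0.19, adjusted p = 1.81e-08). Control held 0.500% of the Astro level of *Cnp* and 0.0358% to 0.0595% of that of the other 8 genes. BAL held 0.446% of the Astro level of *Cnp* and 0.0247% to 0.0526% of the others.

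The balance between the members therefore differed between the cell populations. *Cnp* made up 19.8% of the summed CPM of the 9 genes in Astro, 74.0% in control and 78.1% in BAL, while *Mbp* made up 21.6%, 6.57% and 5.94%. The log2 ratio of *Cnp* to *Mbp* reads, which needs no scaling between libraries, was -0.12 ± 0.0787 in Astro, 3.50 ± 0.165 in control and 3.71 ± 0.125 in BAL. Astro did not overlap either tumor group (exact permutation test, two-sided, p = 0.1 for each, the smallest that 3 against 3 allows), and the ratio was chosen after its values were seen. *Mag*, *Mobp*, *Mal* and *Mog* kept ratios to *Mbp* in the tumor libraries within about 1 log2 unit of those in Astro. *Ugt8a* and *Opalin*, with few reads, varied more: the log2 ratio of *Ugt8a* to *Mbp* was -4.00 in control 2 and -1.34 in BAL 3, against -2.50 to -2.40 in Astro, and that of *Opalin* was -2.68 in control 2 and -5.25 in BAL 3, against -3.81 to -3.68. Exons of *Cnp* share 154 bases, 4.23% of its exon length, with *Dnajc7* on the opposite strand, which had 2078 to 3487 reads in the tumor libraries and 3479 to 4041 in Astro. The strand setting of the counting is not given in the sources used here, and the part of *Dnajc7* reads in the *Cnp* count was not tested.

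**Figure D3:**
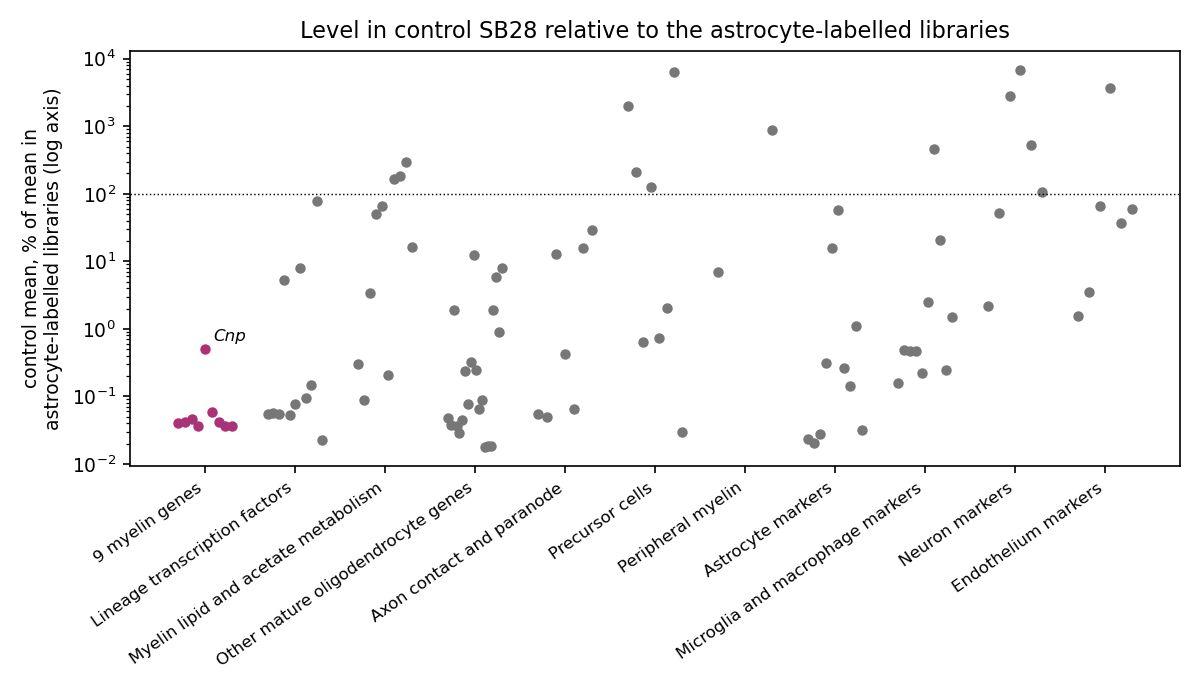
Level in control tumors as a percent of the Astro level (log axis; the dotted line marks equal levels) for the 9 myelin genes in purple and genes of the other lists in gray, 1 point per gene; genes listed at 0 in control are not drawn. The 9 genes lie between 0.0358% and 0.0595% except *Cnp* at 0.500%. Some genes of lipid metabolism, precursor cells, peripheral myelin, microglia, neurons and endothelium reach levels above those in Astro.

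Levels of different genes were compared per kb of exon. In Astro the order of mean CPM per kb was *Mal* (1049), *Cnp* (858), *Cldn11* (723), *Mag* (597), *Mbp* (403.2), *Mog* (403.0), *Mobp* (149), *Ugt8a* (137) and *Opalin* (85.2). Among the 23350 genes with a length, *Mal* ranked 11th, *Cnp* 18th and *Opalin* 346th. Neighbours whose ranges over libraries overlapped were *Cnp* and *Cldn11*, *Cldn11* and *Mag*, *Mbp* and *Mog*, and *Mobp* and *Ugt8a*. In control the order began with *Cnp* (4.29 CPM per kb), followed by *Mal* (0.437), *Cldn11* (0.430) and *Mag* (0.274), and ended with *Opalin* (0.0305). *Mal* and *Cldn11* overlapped there, as did *Mog* and *Mbp*, *Mobp* and *Ugt8a*, and *Ugt8a* and *Opalin*. The BAL order began with *Cnp* (3.83), *Mal* (0.339) and *Cldn11* (0.179) and ended with *Opalin* (0.0248), and *Ugt8a* stood above *Mobp*. Per kb of the longest transcript instead, Astro means were 1076 for *Cnp*, 1049 for *Mal* and 999 for *Mag*, so the order at the top depends on the length used.

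Between BAL101553-treated and control tumors no member passed the test, although most had lower means after treatment. Only 5 of the 9, *Mbp*, *Mag*, *Cnp*, *Cldn11* and *Mal*, had enough reads to be tested. By edgeR's quasi-likelihood test 0 of them passed, beside 14.7% of the 12633 genes tested (1091 higher and 769 lower, or 1456 and 426 with scaling by total library size). An unadjusted p under 0.05 was found for 1 of the 5, beside 4306 of the 12633 genes. With DESeq2 or limma-trend 0 of the 5 passed. The median log2 fold change of the 5 was -0.38, beside 0.016 over all genes tested. Group means were lower in BAL for 8 of the 9 genes, all but *Ugt8a*.

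*Cldn11* had the largest difference. Its level was 0.849, 0.856 and 0.709 CPM in control 1 to 3, from 19, 23 and 17 reads, and 0.439, 0.274 and 0.290 CPM in BAL 1 to 3, from 13, 7 and 10 reads. Every BAL library was below every control library, also with scaling by total library size. The log2 fold change was -1.25 (SE 0.35), with an adjusted p of 0.0511 by edgeR. In 14 alternative analyses the value lay between -1.49 and -1.12 and the adjusted p between 0.00687 and 0.140; the only pass came when all 9 libraries shared one model, in which the spread is estimated with the Astro libraries.

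*Mag* had 1.12, 0.819 and 1.42 CPM in control and 0.641, 0.548 and 0.813 CPM in BAL, with a log2 fold change of -0.72 (SE 0.34, adjusted p = 0.175, edgeR). *Mbp*, with the values given above, had one of -0.38 (SE 0.27, adjusted p = 0.352, edgeR). For both genes the groups did not overlap, by a narrow margin for *Mag*, and overlapped with scaling by total library size. In all, 3 of the 9 genes were lower in BAL without overlap. All 3 are among the 5 members tested, and the share over all genes tested was 19.7%. *Mal* had a log2 fold change of -0.36 (SE 0.32, adjusted p = 0.466) and *Cnp* of -0.16 (SE 0.14, adjusted p = 0.447), with overlapping groups. The remaining 4 genes had at most 15 reads in a tumor library. Without the filter on low counts their log2 fold changes were -0.38 (SE 0.53) for *Mog*, -0.39 (SE 0.48) for *Mobp*, 0.56 (SE 0.62) for *Ugt8a* and -0.42 (SE 1.07) for *Opalin*, with adjusted p between 0.576 and 0.832 by edgeR. No difference in these 4 genes was detectable at this depth. Summed over the 8 genes without *Cnp*, the level was 5.50 ± 0.826 CPM in control, from 124 to 150 reads per library, and 3.90 ± 0.0823 CPM in BAL, from 100 to 137 reads. These sums did not overlap (4.62 to 6.25 CPM in control and 3.81 to 3.98 in BAL), nor did they with scaling by total library size (4.31 to 5.74 and 3.72 to 4.03 CPM). They include *Cldn11*, *Mag* and *Mbp*, described above, and so are not separate evidence. With *Cnp*, the sums of all 9 genes overlapped (19.5 to 22.1 CPM in control and 16.4 to 19.9 in BAL).

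**Figure D4:**
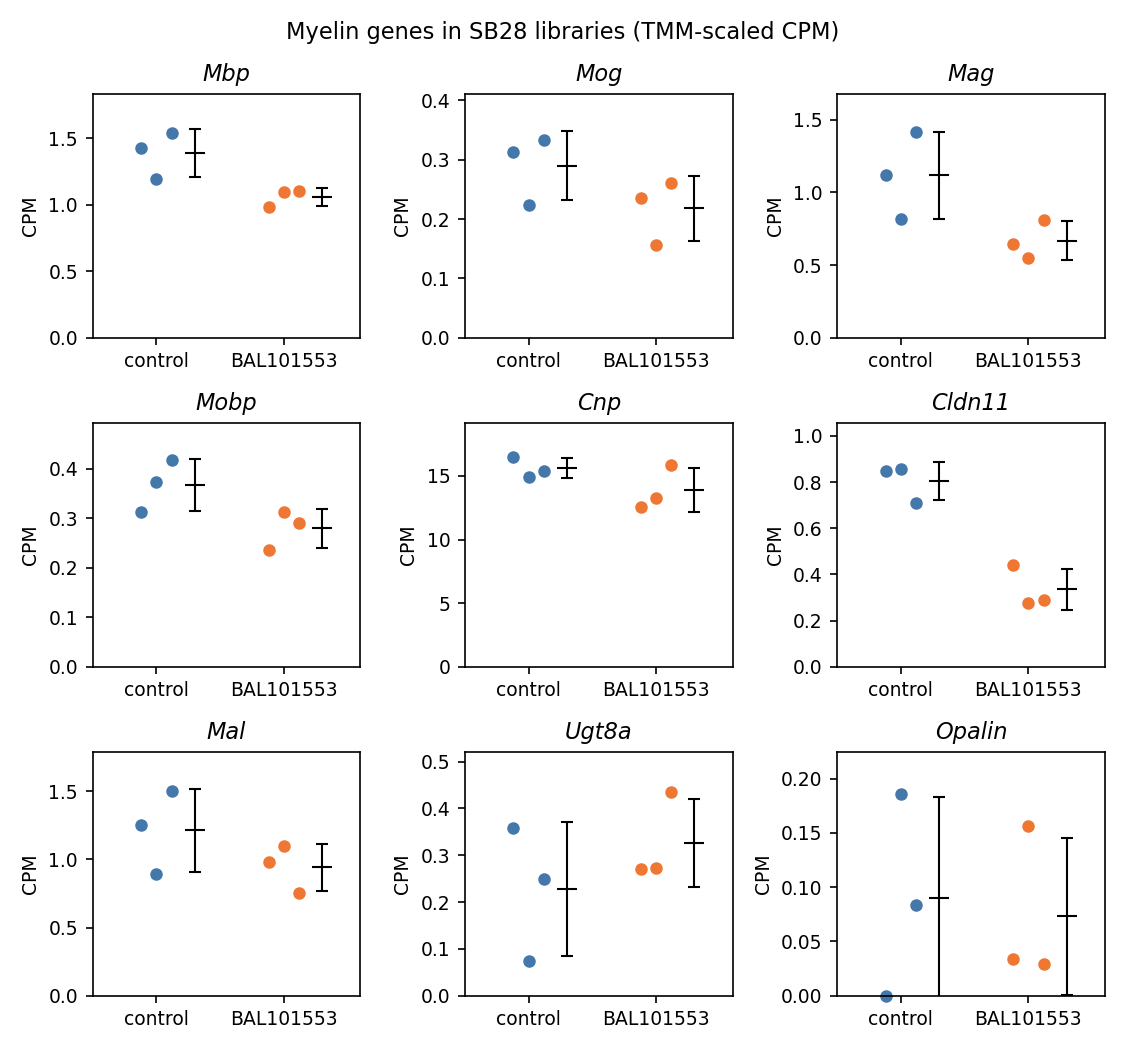
Level of each gene in the 3 control and 3 BAL libraries, in TMM-scaled CPM on linear axes from 0 (each panel has its own scale); points are libraries, bars are mean ± SD, and SD bars are cut at 0. BAL points lie below all control points for *Cldn11*, *Mag* and *Mbp* and overlap them for the other 6 genes.

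The rest of the oligodendrocyte program was read from lists of related genes. Of 20 other genes of mature oligodendrocytes, 20 were higher in Astro than in control, beside 48.8% of all genes tested, with a median control level of 0.0824% of Astro. The most abundant were *Trf*, the iron carrier transferrin (3953 CPM in Astro), and *Enpp2*, autotaxin (2686 CPM). Of 11 lineage transcription factors, 10 were higher in Astro, the exception being *Tcf7l2* (log2 fold change 0.29, adjusted p = 0.0706, edgeR). *Olig1* had 510 CPM, *Sox10* had 438 and *Myrf* had 692 in Astro, and their control levels were 0.0543%, 0.0545% and 0.0780% of that. The 7 genes of axon contact and the paranode were all higher in Astro, among them *Cntn2* (1194 CPM) and *Nfasc* (891 CPM).

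Lipid enzymes and precursor genes did not share this pattern. Of 10 genes of myelin lipid and acetate metabolism, 7 were higher and 3 lower in Astro than in control, where 39.5% of all genes tested were lower. The hydroxylase gene *Fa2h* was higher in Astro (log2 fold change 10.09), while the sterol genes *Cyp51* and *Sqle* were among those lower in Astro, with log2 fold changes of -0.75 and -0.92. Of 8 precursor genes, 4 were higher and 3 lower in Astro. Among the higher ones, *Ptprz1*, a receptor phosphatase, had 635 CPM in Astro and 0.186 in control (log2 fold change 11.62), and *Enpp6*, a gene of newly formed oligodendrocytes, had 35.2 and 0.257 CPM (7.09). Among the lower ones, *Pdgfra*, the PDGF receptor of precursor cells, had 164 CPM in control, 317 in BAL and 8.36 in Astro, and *Vcan* had 847, 1184 and 13.3 CPM. Of 3 genes of peripheral myelin, 2 were tested, of which 1 was higher and 1 lower in Astro than in control, and the 3 together summed to at most 4.23 CPM in an Astro library.

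Between BAL and control, 6 of the 33 genes tested in these 6 lists passed (18.2%), near the 14.7% of all genes tested (8.64% higher and 6.09% lower). Of the 4 lineage factors and 7 lipid genes tested, 0 passed by edgeR. *Zfp488*, a lineage factor (log2 fold change 0.88, SE 0.25, adjusted p = 0.0540, edgeR), passed in 5 of 15 alternatives, without BAL 1 among them, and *Elovl1*, a fatty acid elongase, in 2; both passed with DESeq2. Of 11 other mature genes tested, *Qdpr*, a pteridine reductase, was lower (log2 fold change -0.63, SE 0.11, adjusted p = 0.0170, edgeR) and *Apod*, a lipid carrier, was higher (1.23, SE 0.32, adjusted p = 0.0394). Of 6 axon-contact genes tested, *Cadm4* was lower and *Cntnap1* higher (adjusted p = 0.0473 and 0.0496, edgeR), and of 4 precursor genes tested *Pdgfra* and *Bmp4* were higher, with log2 fold changes of 0.95 (SE 0.16) and 1.74 (SE 0.40). *Pdgfra* passed in all 6 analyses with 1 library left out. *Qdpr* lost its pass without BAL 3 (adjusted p = 0.0539) and without control 3 (0.0540), *Bmp4* without control 1 (0.0533), 2 (0.0697) or 3 (0.105), *Apod* without any library but BAL 1 (0.0575 to 0.110), and *Cadm4* and *Cntnap1* without any one library (0.0523 to 0.130).

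The Astro label was checked against marker genes. Markers of astrocytes were abundant: 10 of 10 were higher in Astro than in control, beside 48.8% of all genes tested. Their sum was 13279 to 16231 CPM in Astro against 929 to 978 in control, where *Gja1* alone had a mean of 902 CPM. *Slc1a2*, the glial glutamate transporter, had 5287 CPM in Astro and 1.24 in control. The 9 myelin genes summed to 13897 to 17202 CPM in the same libraries, a range that overlapped that of the astrocyte markers. These sums are not per length and depend on the genes listed, so they do not measure the share of each lineage. The libraries labelled astrocytes thus held transcripts of both lineages. In them 10 microglia and macrophage markers summed to 669 to 1377 CPM, none at 0, against 196 to 330 CPM in control and 361 to 421 in BAL. Of these 10, 9 were higher in Astro than in control, beside 48.8% of all genes tested, and 1, *Tmem119*, was lower. *Tmem119* had 219 CPM in control, 351 in BAL and 47.9 in Astro. Neuron markers summed to 14.95 to 17.7 CPM. The part of mixed cell types in the myelin gene levels was not tested. In the tumor libraries the neuron markers were uneven. *Nefl*, *Nefm* and *Stmn2* held most of their sum, 43.0 to 106 CPM in control and 18.7 to 42.8 in BAL, while *Rbfox3* and *Slc32a1* were at 0 in every tumor library and *Slc17a7* in every control library. Of 5 tested, 1 passed, *Nefm*, beside 14.7% of all genes tested, the share to set beside the other marker lists too. *Nefm* was lower in BAL (log2 fold change -2.27, SE 0.44, adjusted p = 0.0189, edgeR, and 0.0747 without control 3). *Gad1* (2.35 CPM in control and 5.02 in BAL) and *Snap25* (0.109 and 0.278) had higher means in BAL. Of 6 endothelial markers, 5 were higher in Astro than in control, beside 48.8% of all genes tested, and 1, *Cdh5*, was lower. Its level of 756 CPM in control made up most of their sum, which was 738 to 877 CPM in control, 539 to 656 in BAL and 186 to 225 in Astro. *Cdh5* was also the 1 marker of 6 that passed between BAL and control (-0.52, SE 0.10, adjusted p = 0.0195, edgeR; 0.0595 to 0.0849 without BAL 3, control 1 or control 3). Of 6 astrocyte markers tested, *Slc1a3* was higher and *Gja1* lower in BAL, and of 6 microglia and macrophage markers *P2ry12* was lower (adjusted p = 0.0403, 0.0363 and 0.0313, edgeR); each of these passed in 1 of 6 analyses with a library left out (without BAL 1, BAL 2 and control 2, respectively), with adjusted p of 0.0564 to 0.125 in the others. The part of these markers in the differences of *Cldn11* and *Mag* was not tested.

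The 3 Astro libraries ordered the 9 genes nearly alike. Astro 3 was lowest for 9 of 9 genes, with 0.750 (*Ugt8a*) to 0.880 (*Mal*) of the mean of Astro 1 and 2, and Astro 2 was highest for 7 of 9, all but *Mbp* and *Opalin*. Coefficients of variation ran from 8.26% (*Mobp*) to 16.0% (*Ugt8a*). Astro 3 was also lowest for 19 of 20 other mature genes and 10 of 11 lineage factors. Astrocyte markers had another order, with 10 of 10 lowest in Astro 2, and 10 of 10 microglia markers were highest in Astro 2 and lowest in Astro 1. With 3 libraries these orders are descriptions, and the part of cell makeup in them was not tested.

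**Figure D5:**
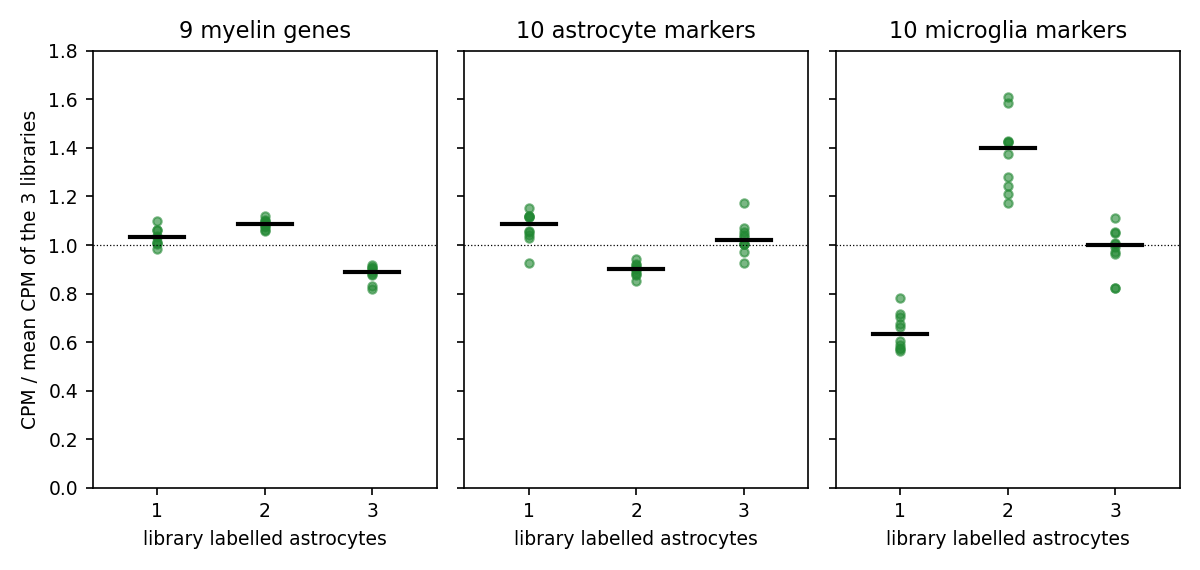
Level in each Astro library relative to the mean of the 3 Astro libraries, for the 9 myelin genes, 10 astrocyte markers and 10 microglia and macrophage markers, on linear axes from 0; points are genes and bars are medians. Myelin genes are lowest in Astro 3 in 9 of 9 cases, and astrocyte markers are lowest in Astro 2 in 10 of 10; microglia markers are highest in Astro 2 in 10 of 10.

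Genes outside the list were ranked by how closely their profile over the 9 libraries followed the median profile of the members, as the root mean square difference of log2 CPM after centring each gene, among 10204 genes with at least 10 CPM on average in Astro. *Pex5l* (0.174), *Cntn2* (0.233), *Sez6l2* (0.235) and *Ermn* (0.237) were among the closest. For scale, *Mbp* itself differed from the median profile by 0.134, *Cldn11* by 0.397, *Ugt8a* by 0.497, *Opalin* by 0.625 and *Cnp* by 1.62. The members enter that median, and the genes outside the list were picked as the closest. Distances of members and of picked genes are therefore not a like comparison. *Pex5l* had 566 ± 90.2 CPM in Astro, 0.180 ± 0.0692 in control and 0.134 ± 0.0301 in BAL.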

How the data were processed

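The authors deposited whole-number read counts per gene for 9 libraries in 3 groups, not normalized. Per the study's methods, reads of stranded libraries were aligned by TopHat and counted by HTSeq (0.6.1 in the submitters' processing notes, which name the build mm10) and featureCounts; the annotation, the strand setting and which counter made the table are not given in the sources used here. Strand and multi-mapping settings would bear most on *Cnp*, which overlaps an antisense gene.

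Analysis used edgeR 4.0.16 in R 4.3.3 (filterByExpr, TMM, quasi-likelihood test, two-sided, Benjamini-Hochberg threshold of 0.05), each comparison on its own 6 libraries. SE was derived from the log2 fold change and its F statistic. DESeq2 1.42.0, limma-trend (limma 3.58.1), other scalings and filters, all 9 libraries in one model, a replicate block and each library left out were alternatives. On simulated data, with 195 of 12531 genes changed 2-fold, the test of BAL against control recovered 140 (71.8%) with 8 false calls. The changed genes were drawn from all genes kept by the filter, so this share does not give the recovery for members with few reads. Libraries of a group differed by more than sampling noise. Intervals between libraries aside, 3 reads or fewer were taken as the limit of detection. Positions and exon lengths were read from GENCODE vM21, GRCm38 (23350 of 24421 rows matched by symbol), promoters from RefSeq.

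The members and lists were chosen with earlier results of these data known. Named in the 10 other lists were genes that passed BAL against control without overlap and genes among the 3 highest in Astro, a few as contrasts (*Tcf7l2*, *Cyp51*, *Sqle*, *Vcan*, and *Zfp488*, *Elovl1*, *Nefl*, *Stmn2*, *Gad1* and *Snap25*), chosen after their values were seen; some list genes, and 1 of the 5 named by likeness of profile, are not reported here.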

Additional observations from a re-analysis of the deposited data

How the results depend on the processing

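Among fold changes of single members, 334 values under an alternative kept their direction and side of the threshold, and 1, that of *Cldn11* between BAL and control with all 9 libraries in one model, newly passed, so that 1 member in place of 0 was called there. Of the counts of called genes in the other lists, 377 stayed within 1.5 times and 73 moved further. When at least 10 counts were required in every library, 4 members remained testable and were called in Astro against BAL and 5 in Astro against control, since the others were removed by that filter. Between BAL and control 1860 genes passed in all, 2832 with DESeq2, 3213 with all 9 libraries in one model, and 193 (without control 3) to 1712 (without BAL 2) with 1 library left out; the other low counts were 458 without control 1, 668 without BAL 3 and 1133 without BAL 1. The cause of these shifts was not tested. With the replicate number as a block 1371 genes passed between BAL and control, 12815 between Astro and BAL and 13357 between Astro and control, and no call of a member changed. Same-numbered libraries correlated by 0.103, 0.00526 and 0.113 between BAL and control, and differently numbered ones by -0.147 to 0.0523. The numbers were not taken as a pairing in the main analysis, and these values do not settle whether they mark one. Low counts limit the comparison of BAL with control, in which 4 members had too few reads to be tested.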
